A study of Rattus norvegicus with 36 samples.

Results

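Rat granulosa cells that received no hormone were compared after culture with 10 µM HPTE (3 arrays) and without HPTE (0 µM, 3 arrays). These 6 arrays were chosen by their titles out of 36 in the study, and exposed and unexposed arrays carry the title numbers 1 to 3. In all groups the follicles of immature Sprague-Dawley rats, 21 to 27 days old, had been punctured with needles to free the cells. They attached for 24 h with 5% serum and then spent 48 h in serum-free medium with androstenedione, the androgen that aromatase turns into estrogen. The design text gives androstenedione at 0.1 µM, whereas the sample descriptions give it as 0.1 M. The other groups used below are unstimulated cells at 1 and 5 µM HPTE, and cells at 10 and 0 µM HPTE that also received FSH at 3 ng/ml or cAMP at 1 mM, with 3 arrays each. Each array was an Affymetrix rat whole-genome array hybridised with labelled cDNA amplified from 40 ng of total RNA. Whether arrays of 1 group stem from different animals is not stated in the labels. P-values therefore cover only the spread between these samples, which may be technical.

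Granulosa cells surround the oocyte, divide while the follicle grows, and make estrogen from thecal androgens once FSH has induced aromatase. HPTE is a hydroxylated product that the body makes from the insecticide methoxychlor. In receptor assays it acts as an agonist of estrogen receptor alpha and as an antagonist of estrogen receptor beta and of the androgen receptor. Genes needed for mitosis are transcribed as a group late in the cell cycle, many of them through promoter elements called CHR and CCAAT boxes, while many genes of DNA synthesis carry E2F sites. ATF4 is a transcription factor made when translation is slowed by stress or by a lack of amino acids. It acts on targets such as Trib3 and Chac1, and on amino acid transporters, through CARE sites.

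In cells exposed to 10 µM HPTE, genes of mitosis were lower than in unexposed cells, and a smaller set of genes was higher that included Akr1b8, the amino acid transporter Slc7a3, the steroid import protein Star, the ATF4 target Trib3 and the inflammatory caspase Casp4. The falls were led by Cyp26b1, which degrades retinoic acid, and by Lpl, which frees fatty acids from lipoproteins. Of 31042 probe sets, 316 were called at an adjusted p under 0.05 by limma, which is 1.02% of those tested, with 129 higher and 187 lower. All 316 moved in the called direction in each of the 3 pairs of equal title number, which calls made from these same arrays make likely. Among 14217 genes, each taken by 1 probe set, 83 were called higher (0.584%) and 125 lower (0.879%). A difference of 2-fold or more was reached by 47 and 77 of them. With the title number as a block, 312 genes were called higher (2.19%) and 357 lower (2.51%). A fit of only the 6 arrays compared called 81 probe sets, 33 higher and 48 lower. The count of 316 probe sets fell to 196, 162 and 176 without unexposed array 1, 2 or 3, and to 194 without exposed array 3.

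**Figure D1:**
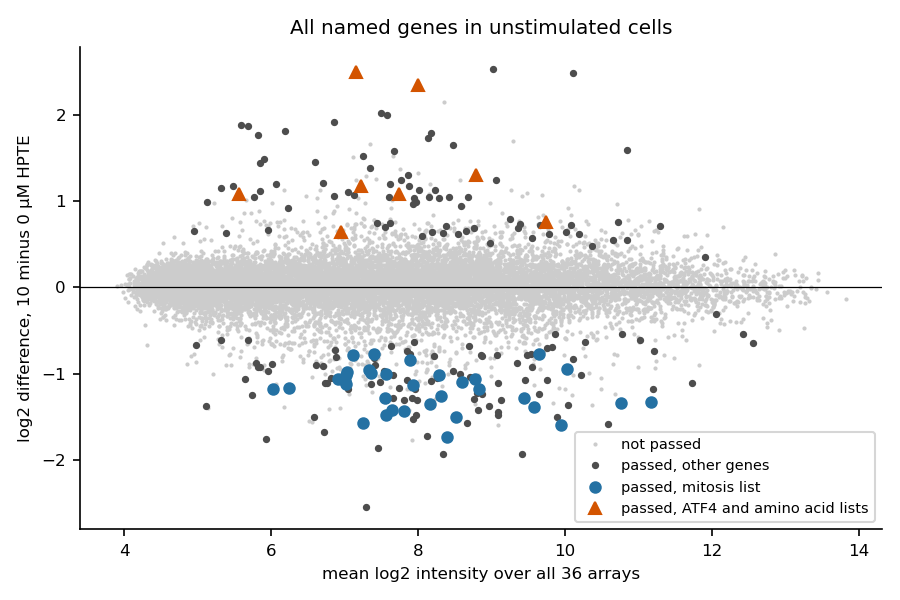
Mean log2 intensity over all 36 arrays (x) against the log2 difference between 10 and 0 µM HPTE in unstimulated cells (y) for 14217 genes. Genes of the mitosis list that passed limma's test (blue) all lie below 0, and those of the ATF4 and amino acid lists (orange) all lie above it.

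Arrays of the exposed group correlated with each other at 0.967 to 0.989 and those of the unexposed group at 0.967 to 0.990, across all probe sets on the log2 scale. The median log2 difference over all genes was 0.03, and it was 0.09, 0.02 and -0.03 in the pairs of number 1, 2 and 3. A measure of RNA integrity set number 3 apart from the other numbers. The log2 ratio of the Gapdh signal of 3' over 5' probe sets was 1.94, 1.95 and 0.893 on exposed arrays 1, 2 and 3, against 2.31, 1.99 and 0.964 on unexposed arrays. It was lower on the exposed array in all 3 pairs, by 0.16 log2 units on average, as was the log2 actin ratio, by 0.168. The part of these gaps in the results was not tested. In the stimulated groups, array 2 of the unexposed FSH group and array 2 of the unexposed cAMP group each carried the Cyp19a1 and Lhcgr levels of the other group. Cyp19a1, for example, was at 11.49, 7.48 and 11.46 on unexposed FSH arrays 1, 2 and 3, and at 7.62, 11.01 and 6.46 on unexposed cAMP arrays. The main counts that use these 2 arrays are therefore given with and without both. Single-gene values for stimulated cells include both unless stated.

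Values below are log2 intensities, in the order of title numbers 1, 2 and 3, and differences are exposed minus unexposed on the log2 scale ± the standard error of the fit (n = 3 arrays against 3). The variance behind each error is pooled over all arrays of the study, those with FSH or cAMP included. An error can therefore be wider or narrower than the spread of the arrays compared. Levels of different probe sets cannot be set against each other on an array, so only differences are compared between genes. In bulk RNA, fewer cells of a kind and less RNA per cell cannot be told apart.

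Genes of mitosis fell as a group. Of 66 measured members of the mitosis list, 34 were called lower and none higher, where 0.879% of all genes were called lower, and 65 of 66 differences were below 0. All lists were chosen with earlier results of these data known, so shares of all genes are given for description only. The median difference was -1.02, against 0.03 over all genes, and it was -0.91, -0.98 and -1.24 in the pairs of number 1, 2 and 3. With the block 58 members were called lower, with only the 12 unstimulated arrays 20, and with only the 6 arrays compared 10, with none higher in any of these fits. The falls covered all stages of division, with 6 of 15 spindle motors and spindle proteins, 13 of 19 kinetochore and checkpoint genes, 8 of 12 mitotic kinases and cyclins, 3 of 12 genes of anaphase and cytokinesis and 4 of 8 genes of chromosome condensation. Sgo2, a protector of centromeric cohesion, was the member above 0, at 0.04. Calls of 13 members were kept whichever of the 6 arrays was left out. The count of 34 was 18 or 16 without unexposed array 1 or 2, and 21 or 14 without exposed array 2 or 3.

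Among spindle genes, Kif11, the motor that pushes the spindle poles apart, was at 6.75, 6.76 and 6.25 in exposed cells, against 8.08, 8.03 and 8.05 in unexposed cells (-1.47 ± 0.19, adjusted p = 4.15e-05). All 3 exposed arrays were low, most of all number 3, and the unexposed arrays lay close together. Hmmr, a protein that binds spindle microtubules and hyaluronan, was at 8.96, 9.15 and 8.40 in exposed cells, against 10.31, 10.24 and 10.11 in unexposed cells (-1.38 ± 0.21, adjusted p = 0.000315). Kif23, the motor of the central spindle, was at 9.86, 9.49 and 8.84 in exposed cells and at 11.22, 11.14 and 10.60 in unexposed cells (-1.59 ± 0.35, adjusted p = 0.0184). The groups did not overlap, but the call of Kif23 was lost without unexposed array 1 or 2 (adjusted p = 0.105 and 0.103) and without exposed array 2 or 3 (adjusted p = 0.0525 and 0.148). A dimmer Kif23 probe set differed by -0.57 ± 0.215 and was not called (adjusted p = 0.401).

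Of the kinetochore genes, Bub1, a kinase of the spindle checkpoint, was at 7.53, 7.55 and 7.02 in exposed cells, against 8.48, 8.82 and 8.85 in unexposed cells (-1.35 ± 0.23, adjusted p = 0.0011). Nuf2, part of the complex that grips microtubules, had the smaller but tighter difference of -1.06 ± 0.13, adjusted p = 2.37e-05, with 8.19, 8.13 and 7.83 in exposed cells and 9.11, 9.03 and 9.18 in unexposed cells. Its partner Spc25 was at 6.58, 7.06 and 6.47 in exposed cells, against 8.37, 8.21 and 7.80 in unexposed cells (-1.43 ± 0.27, adjusted p = 0.00457). Knl1, the scaffold on which Bub1 assembles, and Cenpf, a kinetochore protein, differed by -1.28 ± 0.21 (adjusted p = 0.000897) and -1.17 ± 0.17 (adjusted p = 0.000215). Exposed and unexposed arrays did not overlap for any of these genes, as in 207 of all 208 called genes. The calls of these kinetochore genes were kept without any 1 array. The kinetochore gene Cenpw differed by -1.50 ± 0.34 (adjusted p = 0.0232), a call lost without unexposed arrays 1, 2 or 3 (adjusted p = 0.129, 0.0725 and 0.0646) or exposed array 3 (0.222). A dimmer Cenpw probe set gave -1.10 and was not called (adjusted p = 0.183).

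Pbk, a kinase active in dividing cells, was at 6.09, 6.46 and 5.98 in exposed cells, against 7.73, 8.01 and 7.50 in unexposed cells (-1.57 ± 0.26, adjusted p = 0.00109). Ccna2, the cyclin of S phase and mitotic entry, had the largest difference of the mitosis list, with 7.86, 7.79 and 6.68 in exposed cells and 9.44, 9.23 and 8.86 in unexposed cells (-1.73 ± 0.40, adjusted p = 0.0232). Exposed array 3 was the lowest, and the call was lost without it (adjusted p = 0.19) and without unexposed array 1 or 2 (adjusted p = 0.123 and 0.101). Ect2, the exchange factor that starts the cleavage furrow, was at 10.32, 10.27 and 9.61 in exposed cells, against 11.32, 11.43 and 11.46 in unexposed cells (-1.34 ± 0.16, adjusted p = 2.22e-05). Its partner Racgap1 differed by -1.18 ± 0.19 (adjusted p = 0.000924), and Top2a, the topoisomerase that untangles chromosomes, by -1.33 ± 0.24 (adjusted p = 0.00205). Mki67, the proliferation marker, was at 8.20, 8.25 and 7.17 in exposed cells, against 9.41, 9.72 and 8.54 in unexposed cells. It did not pass (-1.35 ± 0.44, adjusted p = 0.229), and it passed with the block (adjusted p = 0.00174). Outside the list, Plk4, the kinase that duplicates centrioles, was at 7.06, 7.07 and 7.19 in exposed cells, against 8.63, 8.35 and 8.79 in unexposed cells (-1.48 ± 0.19, adjusted p = 4.15e-05). Depdc1, which is high in dividing cells, was at 7.04, 7.20 and 6.91 in exposed cells, against 8.79, 8.26 and 8.66 in unexposed cells (-1.52 ± 0.25, adjusted p = 0.000897).

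The promoters of mitosis genes were set beside their falls, because many of them share short elements. RefSeq promoter windows (GRCr8, 300 bases from 250 before to 50 after the start) were available for 30 of the 34 called members. CHR letters (TTTGAA or TTCGAA, either strand) were found in 21 of 30 windows (70%), against 19.7% of all 33469 promoter windows and 14.3% of the windows of measured genes. CCAAT (either strand) was in 19 of 30 (63.3%), against 37.5% of all promoters and 36.8% of the windows of measured genes. Both were in 15 of 30 (50%), against 7.95% and 5.8%. Among all measured members of the mitosis list CHR letters were in 66.1% of windows, so the share is that of the whole list. The windows of Ect2 and Kif23 are printed as examples that hold both, 5' to 3' on the gene's strand, with CHR and CCAAT letters on either strand in capitals. Ect2 lies at chr2:111966577-111966876 on the minus strand and has 2 CHR matches whose first bases are 155 and 3 bases before the start, and 3 CCAAT matches at 137, 96 and 40. Kif23 lies at chr8:71320535-71320834 on the minus strand, with a CHR match at 79 and a CCAAT match at 88.
Ect2: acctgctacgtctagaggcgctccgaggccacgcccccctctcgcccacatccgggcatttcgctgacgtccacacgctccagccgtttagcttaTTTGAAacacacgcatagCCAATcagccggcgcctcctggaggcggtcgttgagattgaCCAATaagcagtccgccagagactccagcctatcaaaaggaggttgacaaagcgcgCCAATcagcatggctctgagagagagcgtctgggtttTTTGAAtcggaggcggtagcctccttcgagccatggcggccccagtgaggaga
Kif23: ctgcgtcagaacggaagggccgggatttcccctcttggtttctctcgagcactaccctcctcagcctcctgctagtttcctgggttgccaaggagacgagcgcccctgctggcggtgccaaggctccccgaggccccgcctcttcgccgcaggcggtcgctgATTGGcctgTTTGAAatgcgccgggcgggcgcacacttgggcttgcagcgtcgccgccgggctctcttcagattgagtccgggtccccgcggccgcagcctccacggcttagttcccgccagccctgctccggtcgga
A match is a run of letters and not evidence that a factor binds there.

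**Figure D2:**
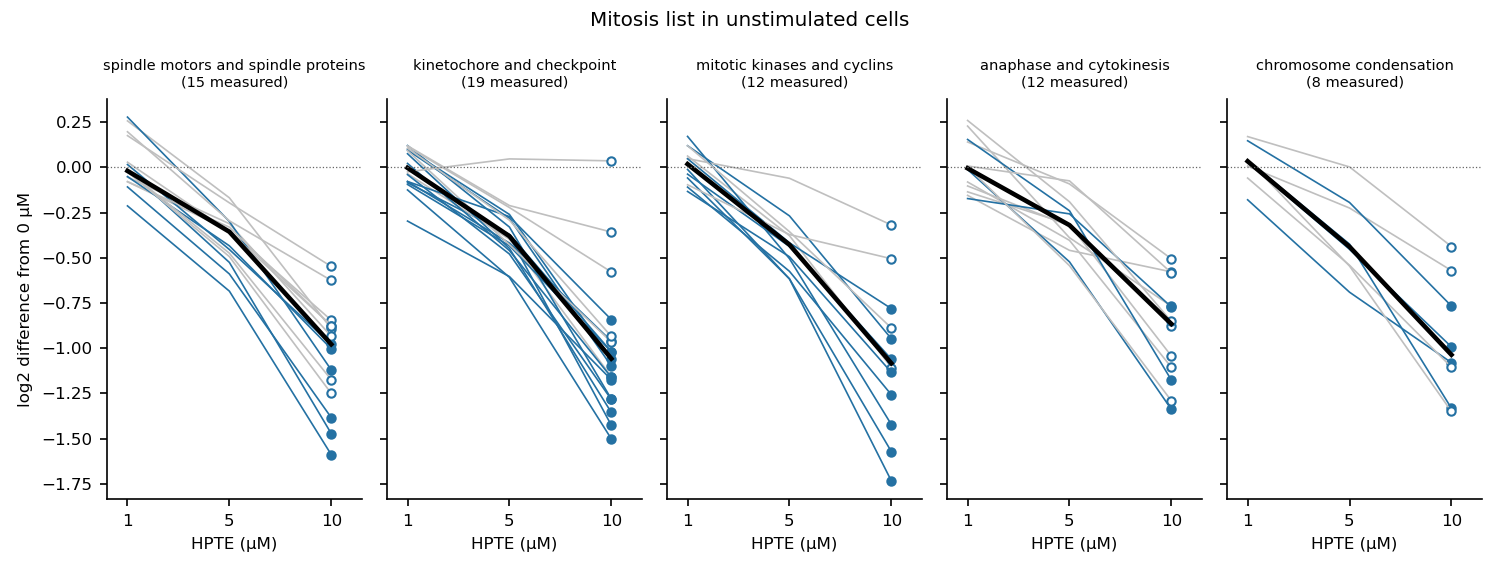
Log2 difference from unexposed cells at 1, 5 and 10 µM HPTE (equally spaced) for the 66 measured members of the mitosis list, split by role. Filled points passed limma's test at 10 µM and the black line is the median of the role. The median over the whole list was -0.0008 at 1 µM, -0.38 at 5 µM and -1.02 at 10 µM, all against the same 3 unexposed arrays.

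Genes of DNA replication were also lower, with fewer calls. Of 40 measured members, 5 were called lower (Mcm5, Pole2, Tk1, Uhrf1 and Asf1b) and none higher, with a median of -0.61 and 39 of 40 differences below 0. With the block 14 were called lower. Tk1, the thymidine kinase of S phase, was at 7.87, 7.44 and 6.86 in exposed cells, against 8.89, 8.50 and 8.70 in unexposed cells (-1.31 ± 0.20, adjusted p = 0.000315), and its call was kept without any 1 array. Mcm5, a subunit of the replicative helicase, was at 7.79, 7.77 and 6.88 in exposed cells, against 8.95, 8.56 and 8.19 in unexposed cells (-1.09 ± 0.26, adjusted p = 0.0345). That call was lost without unexposed array 1 or 2 (adjusted p = 0.247 and 0.124) or exposed array 3 (0.267). The other 3 calls were each lost without at least exposed array 3 (adjusted p = 0.113 for Pole2, 0.0612 for Uhrf1 and 0.0692 for Asf1b), and also without unexposed array 3 (0.0671, 0.254 and 0.0785). Unexposed array 1 was needed for Pole2 and Uhrf1 (0.0793 and 0.0626), exposed array 1 for Uhrf1 (0.139), and exposed array 2 for Uhrf1 and Asf1b (0.113 and 0.0776).

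E2F letters (TTTCCCGC or TTTGGCGC, either strand) were in 14 of 39 promoter windows of the measured replication genes (35.9%). The share was 1.45% of all promoters and 2.48% of the windows of measured genes. None of the 56 windows of measured mitosis genes held them. Mcm5, at chr19:13488563-13488862 on the plus strand, is printed as the called helicase gene with E2F letters, which start 209 and 8 bases before the start, with 3 CCAAT matches at 137, 82 and 54.
Mcm5: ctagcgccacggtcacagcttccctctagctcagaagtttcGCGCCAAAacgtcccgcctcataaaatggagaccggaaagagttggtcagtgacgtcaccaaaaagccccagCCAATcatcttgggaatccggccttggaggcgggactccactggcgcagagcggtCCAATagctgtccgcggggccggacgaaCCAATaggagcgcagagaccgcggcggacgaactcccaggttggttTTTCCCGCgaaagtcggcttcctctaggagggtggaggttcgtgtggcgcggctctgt

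Of 28 measured genes of G1 and growth arrest, 3 were lower and none higher. E2f8, a repressor made late in S phase, was at 6.60, 6.98 and 6.48 in exposed cells, against 8.20, 7.82 and 7.88 in unexposed cells (-1.28 ± 0.20, adjusted p = 0.000527). Cdkn3, a phosphatase of cyclin-dependent kinases, differed by -1.22 ± 0.28 (adjusted p = 0.0209) and Lin9, a subunit of the complex that activates mitotic genes, by -0.54 ± 0.11 (adjusted p = 0.0111). Both were lost without unexposed array 1 (adjusted p = 0.117 and 0.075) or exposed array 3 (0.182 and 0.0924), Cdkn3 also without unexposed array 2 (0.113) and Lin9 without unexposed array 3 (0.0832). The cyclins that act before S phase did not pass. Ccnd2, the D-type cyclin of granulosa cells, differed by 0.26 ± 0.40, Ccnd1 by -0.09 ± 0.25 and Ccne1 by -0.32 ± 0.18. The inhibitor Cdkn1a, a p53 target, differed by 0.10 ± 0.80. That error is wide, and which of the pooled arrays made it so is not given here. Foxm1, an activator of mitotic genes, differed by -0.56 ± 0.22 (adjusted p = 0.447). Of the p53 targets and apoptosis genes, 1 of 28 was called, Gadd45a, a stress-induced growth arrest gene, at 9.36, 9.21 and 10.22 in exposed cells, against 7.52, 7.60 and 8.47 in unexposed cells (1.73 ± 0.44, adjusted p = 0.0488). Number 3 was high in both groups. The call was kept without unexposed array 3 and lost without each of the other arrays (adjusted p = 0.0682 to 0.26).

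Genes that cells switch on through ATF4 rose in part. Of 23 measured members of the ATF4 list, 3 were called higher (Trib3, Chac1 and Sesn2) and none lower, where 0.584% of all genes were called higher, and the median was 0.42. With the block 6 were called higher. Trib3, a pseudokinase that damps ATF4 itself, was at 9.90, 9.74 and 10.13 in exposed cells, against 7.22, 7.64 and 7.89 in unexposed cells, 5.07-fold higher (2.34 ± 0.36, adjusted p = 0.000441). Another Trib3 probe set was also called (1.89 ± 0.25, adjusted p = 5.57e-05), and a dimmer one was not (1.13 ± 0.42, adjusted p = 0.392). Sesn2, which restrains mTORC1 when leucine is short, was at 7.58, 7.45 and 7.47 in exposed cells, against 6.94, 6.84 and 6.79 in unexposed cells (0.64 ± 0.11, adjusted p = 0.00176). Chac1, which breaks down glutathione, was at 8.29, 8.58 and 8.26 in exposed cells, against 7.30, 7.39 and 6.93 in unexposed cells (1.17 ± 0.29, adjusted p = 0.0397), a call lost without any 1 of the 6 arrays (adjusted p = 0.088 to 0.227).

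Several members with large differences did not pass. Ddit3, the stress factor also called CHOP, was at 8.95, 8.36 and 9.74 in exposed cells, against 6.79, 7.69 and 7.99 in unexposed cells (1.52 ± 0.49, adjusted p = 0.199, with the block 0.000828). Atf5, a factor related to ATF4, differed by 1.28 ± 0.33 (adjusted p = 0.0548, with the block 0.00121) and Gdf15, a stress cytokine, by 0.98 ± 0.27 (adjusted p = 0.0935, with the block 0.000367). Exposed and unexposed arrays did not overlap for these 3 genes. With 3 arrays against 3 this adds no support, since the share of all genes without overlap was not counted. Atf4 mRNA itself differed by 0.48 ± 0.46 (adjusted p = 1), and Atf3, an early target, by 0.44 ± 0.34 (adjusted p = 1).

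CARE letters (TGATGNAA, either strand) were in the windows of Trib3 and Chac1 and not in that of Sesn2. They were in 5 of 22 windows of the measured ATF4 list (22.7%). The share was 3.98% of all promoters, 2.24% of the windows of measured genes and 11.2% of those of all genes called higher. The windows of Trib3 (chr3:161275484-161275783, minus strand, match starting 21 bases before the start) and Chac1 (chr3:126795881-126796180, plus strand, match starting 167 bases before it) are printed with the CARE letters in capitals.
Trib3: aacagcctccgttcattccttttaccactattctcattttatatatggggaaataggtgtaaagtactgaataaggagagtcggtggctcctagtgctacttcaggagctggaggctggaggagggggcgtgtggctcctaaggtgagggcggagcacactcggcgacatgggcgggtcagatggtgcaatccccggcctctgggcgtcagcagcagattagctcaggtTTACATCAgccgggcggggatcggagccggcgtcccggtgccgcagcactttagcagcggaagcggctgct
Chac1: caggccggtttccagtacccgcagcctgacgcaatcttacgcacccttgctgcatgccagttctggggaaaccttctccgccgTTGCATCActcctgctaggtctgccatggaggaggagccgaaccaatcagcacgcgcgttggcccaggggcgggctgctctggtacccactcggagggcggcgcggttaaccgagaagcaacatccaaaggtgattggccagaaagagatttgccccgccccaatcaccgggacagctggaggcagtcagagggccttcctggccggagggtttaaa

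Part of the amino acid transporters also rose. Of 31 measured genes of amino acid supply, 5 were called higher and none lower, with a median of 0.35, and with the block 9 were called higher. All 5 were among the 18 transporters. Slc7a3, a carrier of arginine and lysine, was at 9.45, 9.72 and 9.85 in exposed cells, against 7.07, 7.12 and 7.34 in unexposed cells, 5.64-fold higher (2.50 ± 0.36, adjusted p = 0.000183). Slc6a9, a glycine carrier, was at 8.84, 8.96 and 8.66 in exposed cells, against 7.82, 7.83 and 7.58 in unexposed cells (1.08 ± 0.20, adjusted p = 0.00271). Slc38a1, a glutamine carrier, was at 10.19, 10.13 and 10.16 in exposed cells, against 9.36, 9.41 and 9.44 in unexposed cells (0.75 ± 0.14, adjusted p = 0.00318). In each of these 3 genes the arrays of a group lay close together and the call was kept without any 1 array. Slc38a4, another neutral amino acid carrier, differed by 1.09 ± 0.22 (adjusted p = 0.00815), a call lost without unexposed array 3 or exposed array 1 (adjusted p = 0.0729 and 0.104). Slc3a2, the heavy chain that carries several transporters to the membrane, differed by 1.30 ± 0.31 (adjusted p = 0.0287), and its call held only without exposed array 2 (adjusted p = 0.0606 to 0.22 without each of the other 5 arrays). Slc7a11, the cystine carrier that pairs with Slc3a2, was at 8.30, 8.57 and 8.93 in exposed cells, against 6.97, 6.76 and 7.08 in unexposed cells, but missed the threshold (1.66 ± 0.43, adjusted p = 0.0586, with the block 0.0112).

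With the block, 3 of the 13 synthesis enzymes were called higher as well. Asns, the asparagine synthetase, was at 9.70, 9.9969 and 9.96 in exposed cells, against 9.18, 8.85 and 8.80 in unexposed cells (0.94 ± 0.30, adjusted p = 0.211), and Phgdh, the first enzyme of serine synthesis, differed by 0.33 ± 0.22 (adjusted p = 1). Of 19 aminoacyl-tRNA synthetases, 1 was called higher, Wars1 for tryptophan (0.94 ± 0.24, adjusted p = 0.0447), a call lost without any 1 of the 6 arrays (adjusted p = 0.0749 to 0.298). All 19 differences were above 0, with a median of 0.27. Chaperones and factors of the endoplasmic reticulum, which another arm of the stress response controls, gave 1 higher and 1 lower of 22. Atf6, a stress sensor of that membrane, differed by 0.62 ± 0.13 (adjusted p = 0.00808, without unexposed array 1 0.0719), and Creld2, a secreted chaperone, by -0.77 ± 0.17 (adjusted p = 0.0144, without unexposed array 2 or 3 or exposed array 1 0.0853, 0.0574 and 0.0952). Hspa5, the main chaperone there, differed by 0.23 ± 0.20 (adjusted p = 1).

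**Figure D3:**
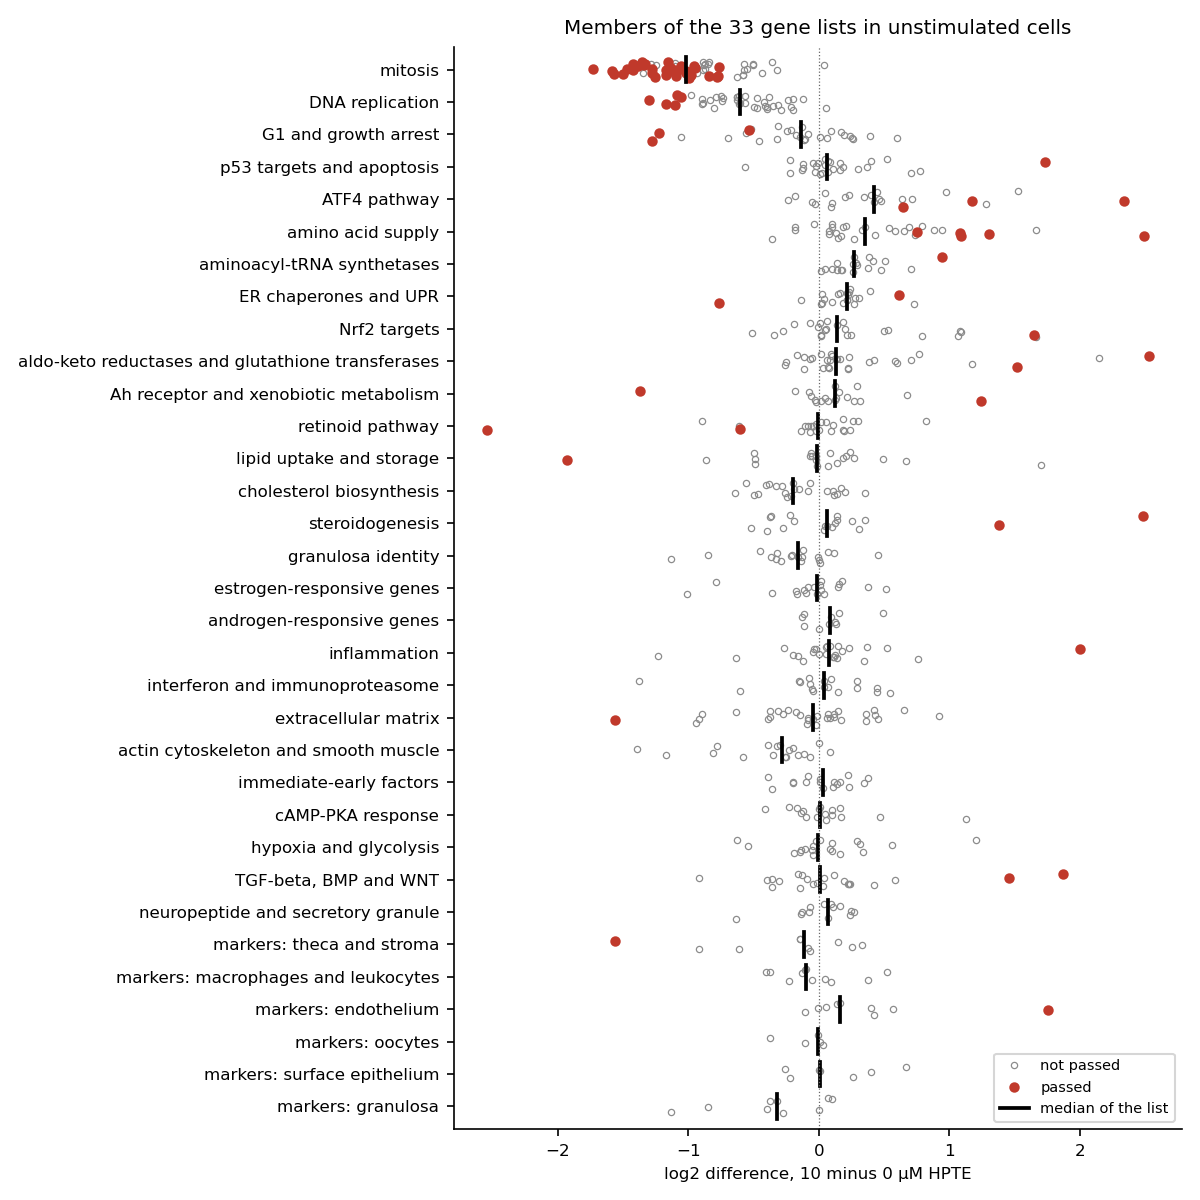
Log2 difference between 10 and 0 µM HPTE in unstimulated cells for each measured member of the 33 gene lists. Filled points passed limma's test, bars are list medians, and the mitosis and DNA replication lists have the lowest medians (-1.02 and -0.61).

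A pair of aldo-keto reductases, enzymes that reduce aldehydes and ketones, rose. Akr1b8, an aldo-keto reductase, was at 10.03, 9.50 and 9.95 in exposed cells, against 7.92, 7.20 and 6.77 in unexposed cells, the largest rise of all called genes at 5.78-fold (2.53 ± 0.38, adjusted p = 0.000315). Akr1c15, another aldo-keto reductase, was at 7.95, 8.05 and 8.43 in exposed cells, against 6.46, 6.73 and 6.69 in unexposed cells (1.52 ± 0.19, adjusted p = 2.37e-05). They were the 2 called of 31 aldo-keto reductases and glutathione transferases, with none of the 17 transferases called by limma, and 7 of the 31 called higher and none lower with the block. Of 25 targets of Nrf2, the factor of the oxidative stress response, 1 was called higher, the efflux pump Abcc4, at 9.33, 9.25 and 9.12 in exposed cells, against 7.82, 7.73 and 7.20 in unexposed cells (1.65 ± 0.32, adjusted p = 0.00477, without unexposed array 3 0.0522). With the block 5 were called higher. Nqo1, a quinone reductase, was at 10.25, 9.70 and 9.62 in exposed cells, against 9.50, 8.57 and 8.30 in unexposed cells (1.06 ± 0.37, adjusted p = 0.307, with the block 0.000243), and Hmox1, which degrades heme, differed by 1.08 ± 0.35 (adjusted p = 0.203). The glutathione synthesis subunit Gclm differed by -0.51 ± 0.25 (adjusted p = 0.795).

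Of 19 genes of the Ah receptor and of xenobiotic metabolism, 1 was higher and 1 lower. Cyp1b1, which hydroxylates estradiol, was at 9.58, 9.19 and 10.32 in exposed cells, against 8.55, 8.15 and 8.65 in unexposed cells (1.25 ± 0.27, adjusted p = 0.0149), a call lost without unexposed array 2 (adjusted p = 0.124) or exposed array 3 (0.153). Sult1a1, which sulfates phenols, was at 4.92, 4.79 and 4.69 in exposed cells, against 5.70, 6.19 and 6.62 in unexposed cells (-1.37 ± 0.22, adjusted p = 0.000808), and its call was kept without any 1 array. Cyp1a1, the most inducible target of the Ah receptor, differed by -0.08 ± 0.20 (adjusted p = 1).

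Among genes of steroid synthesis, 2 of 19 were higher and none lower. Star, which carries cholesterol into mitochondria, was at 11.09, 10.55 and 10.37 in exposed cells, against 8.59, 8.23 and 7.72 in unexposed cells, 5.6-fold higher (2.49 ± 0.54, adjusted p = 0.0159). The call was lost without unexposed array 2 or 3 (adjusted p = 0.0664 and 0.108) or exposed array 1 (0.104). The dimmer of the Star probe sets gave 3.60 ± 0.43 (adjusted p = 2.37e-05). Hsd11b1, which regenerates active glucocorticoid, was at 8.85, 8.03 and 7.70 in exposed cells, against 7.33, 6.75 and 6.34 in unexposed cells (1.38 ± 0.35, adjusted p = 0.0442). That call was lost without unexposed array 2 or 3 (adjusted p = 0.169 and 0.292) or exposed array 1 or 2 (0.377 and 0.0939). The next steps after Star were not called. Cyp11a1, which makes pregnenolone, differed by -0.37 ± 0.79, Hsd3b1, which makes progesterone, by 0.36 ± 0.42, and Cyp19a1, the aromatase, by 0.10 ± 0.95 (adjusted p = 1 for each). With the block 1 of the 19 genes was called lower, Foxl2, a transcription factor that maintains granulosa cells (-0.37 ± 0.12, adjusted p = 0.21, with the block 0.0413). Cyp19a1 was at 4.58, 4.84 and 5.0028 in exposed cells and at 5.11, 4.51 and 4.50 in unexposed cells, where unexposed FSH arrays 1 and 3 had 11.49 and 11.46 on the same probe set. The error of 0.95 is not the spread of the unstimulated arrays compared, which lay between 4.50 and 5.11. Its pooled variance includes unexposed FSH array 2 at 7.48 and unexposed cAMP array 2 at 11.01. How far these widened the error is not given here, and the missing call does not show that Cyp19a1 was unchanged.

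No gene of 19 in the granulosa identity list was called by limma, with 3 at an unadjusted p under 0.05 and 1 called higher with the block. Over all genes 8.02% had an unadjusted p under 0.05, and 2.19% were called higher and 2.51% lower with the block. Inha, the inhibin alpha subunit, was at 9.54, 9.16 and 8.61 in exposed cells, against 9.70, 10.15 and 10.02 in unexposed cells (-0.85 ± 0.35, adjusted p = 0.507). The gene called with the block was Igfbp5, which binds insulin-like growth factors (0.45 ± 0.13, adjusted p = 0.113, with the block 0.0201). Of 19 estrogen-responsive genes none was called by limma, with 1 at an unadjusted p under 0.05 and 1 lower with the block. That gene, Greb1, an early target of estrogen receptor alpha, differed by -1.01 ± 0.39 (adjusted p = 0.435, with the block 0.0233), and Pgr, the progesterone receptor, by 0.01 ± 0.20. Of 10 androgen-responsive genes none was called by limma, none had an unadjusted p under 0.05, and 1 was called higher with the block. The letters of a full estrogen response element (GGTCANNNTGACC) were in none of the 80 and 112 promoter windows of genes called higher and lower and in 0.0269% of all windows. At so low a share no match was to be expected in these windows, so their absence carries no information.

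The largest fall was that of Cyp26b1, which degrades retinoic acid. It was at 5.76, 6.9996 and 6.66 in exposed cells, against 8.84, 9.19 and 9.02 in unexposed cells, 5.83-fold lower (-2.54 ± 0.41, adjusted p = 0.000897). Exposed array 1 was the lowest, and the unexposed arrays lay close together. Its dimmer probe set differed by -0.59 ± 0.14 (adjusted p = 0.031). Of 24 measured genes of the retinoid pathway the other one called was Nrip1, a corepressor of nuclear receptors, at 10.16, 10.33 and 10.06 in exposed cells, against 10.81, 10.88 and 10.67 in unexposed cells (-0.60 ± 0.12, adjusted p = 0.00808), a call lost without unexposed array 2 (adjusted p = 0.0694) or exposed array 3 (0.0656). The retinoic acid carrier Crabp2 differed by 0.82 ± 0.53 (adjusted p = 1). Lpl, the lipoprotein lipase, was at 9.14, 8.88 and 8.83 in exposed cells, against 10.63, 10.74 and 11.29 in unexposed cells, 3.81-fold lower (-1.93 ± 0.27, adjusted p = 0.00012). It was the 1 gene called of 21 for lipid uptake and storage. None of 23 cholesterol synthesis genes was called by limma, with 1 at an unadjusted p under 0.05 and none with the block.

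Several other large falls were tight. Cavin2, a coat protein of caveolae, was at 9.66, 9.79 and 9.54 in exposed cells, against 11.16, 11.40 and 11.18 in unexposed cells (-1.58 ± 0.17, adjusted p = 7.98e-06), with the arrays of each group close together and no overlap. Lhfpl3, a membrane protein of the tetraspan family, was at 5.16, 5.26 and 5.69 in exposed cells, against 6.88, 7.18 and 7.31 in unexposed cells (-1.75 ± 0.22, adjusted p = 4.1e-05). Mreg, a protein of melanosome and lysosome transport, was at 6.59, 6.37 and 6.49 in exposed cells, against 8.02, 8.55 and 7.90 in unexposed cells (-1.67 ± 0.27, adjusted p = 0.000897). These 3 calls were kept without any 1 array, and those of 4 others were not. Clec2d2l2 differed by -1.93 ± 0.41 (adjusted p = 0.0137, without unexposed array 1 or 2 or exposed array 3 0.0598, 0.108 and 0.145). Plppr5, a phosphatase-like membrane protein, differed by -1.86 ± 0.47 (adjusted p = 0.0463), a call kept only without exposed array 2 (0.11 to 0.233 without the others). Pcdh20, a protocadherin, differed by -1.50 ± 0.33 (adjusted p = 0.0158, without unexposed array 2 or 3 or exposed array 1 0.124, 0.0697 and 0.179). The dimmer probe sets of Plppr5 and Pcdh20 gave -1.08 and -1.02 and were not called (adjusted p = 0.965 and 0.113). Smoc2, a matrix protein, differed by -1.72 ± 0.39 (adjusted p = 0.0199, without unexposed array 1 or 2 or exposed array 2 or 3 0.055, 0.189, 0.0746 and 0.0958), while its dimmer probe sets differed by 0.07 and -0.08.

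Rises outside the lists above included secreted proteins and protease inhibitors. Serpinb1a, an inhibitor of neutrophil proteases, was at 9.10, 8.71 and 8.40 in exposed cells, against 7.12, 6.92 and 6.42 in unexposed cells (1.92 ± 0.21, adjusted p = 7.98e-06), while its dimmer probe set gave 0.47 and was not called (adjusted p = 0.524). Serping1, the inhibitor of complement C1, was at 7.99, 8.13 and 8.22 in exposed cells, against 6.40, 6.71 and 5.81 in unexposed cells (1.81 ± 0.24, adjusted p = 6.55e-05). Casp4, the caspase that senses bacterial lipopolysaccharide, was at 9.07, 9.37 and 9.66 in exposed cells, against 7.53, 7.23 and 7.34 in unexposed cells (2.00 ± 0.26, adjusted p = 4.15e-05), and it was the 1 gene called of 26 for inflammation. Cd24, a surface glycoprotein, was at 8.34, 8.26 and 8.89 in exposed cells, against 6.46, 6.28 and 6.71 in unexposed cells (2.01 ± 0.33, adjusted p = 0.000897). The calls of these 4 genes were kept without any 1 array.

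Less stable rises were Igfbp1, which binds insulin-like growth factors (1.88 ± 0.37, adjusted p = 0.00563, without unexposed array 3 or exposed array 2 0.0536 and 0.0507), and Grem1, an antagonist of bone morphogenetic proteins (1.87 ± 0.37, adjusted p = 0.00723, without unexposed array 2 or exposed array 1 0.0724 and 0.0923). Grem1 was 1 of 2 called higher among 22 genes of TGF-beta, BMP and WNT signalling, beside the ligand Wnt5a (1.46 ± 0.31, adjusted p = 0.012, without unexposed array 3 or exposed array 2 or 3 0.0958, 0.0631 and 0.075). Reln, a secreted glycoprotein known from neurons, was at 10.02, 10.60 and 9.86 in exposed cells, against 8.93, 8.78 and 7.39 in unexposed cells (1.79 ± 0.44, adjusted p = 0.0369), with unexposed array 3 low. The call of Reln was kept only without unexposed array 1 (0.0639 to 0.341 without the others), and its dimmer probe set gave 1.38 ± 0.28 (adjusted p = 0.00737). Ifi27l2b, of an interferon-inducible family, was at 11.66, 11.40 and 11.51 in exposed cells, against 9.9965, 10.11 and 9.67 in unexposed cells (1.59 ± 0.36, adjusted p = 0.0199), a call lost without any 1 array (0.0517 to 0.121).

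**Figure D4:**
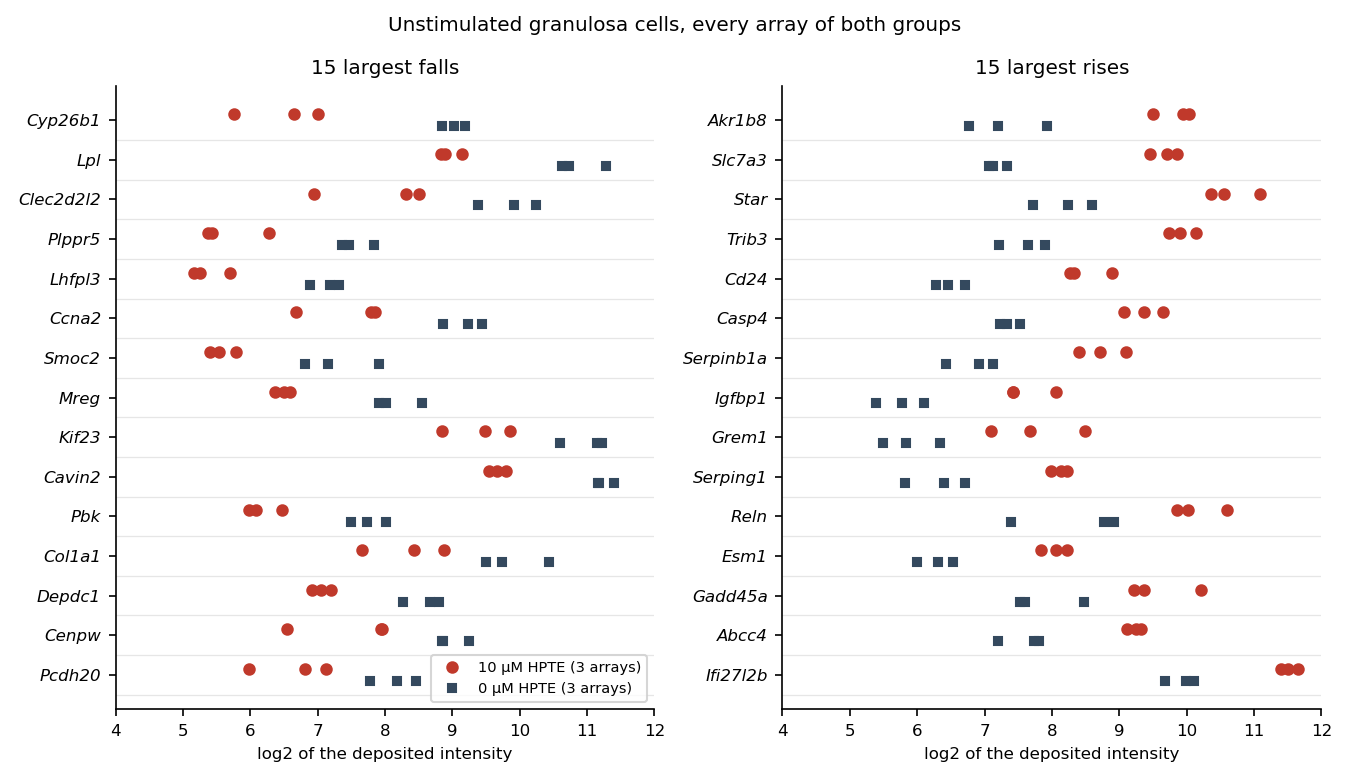
Log2 intensity of the 15 largest falls and the 15 largest rises on each of the 3 exposed arrays (circles, upper) and 3 unexposed arrays (squares, lower). No gene shown has overlapping groups, which was part of the rule that chose them, and Cyp26b1 and Akr1b8 differ most, at 5.83-fold lower and 5.78-fold higher.

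Markers of cells other than granulosa cells were read beside these results. Of 10 measured theca and stroma markers 1 was called, Col1a1, a fibrillar collagen chain, at 8.87, 8.43 and 7.65 in exposed cells, against 10.43, 9.50 and 9.73 in unexposed cells (-1.57 ± 0.37, adjusted p = 0.0307, without unexposed array 1 or 3 or exposed array 2 or 3 0.227, 0.0785, 0.0776 and 0.22). A dimmer Col1a1 probe set gave -1.02 (adjusted p = 0.516). The summed intensity of the list was 2908 to 3725 on exposed arrays and 4314 to 5281 on unexposed arrays, and without Col1a1 it was 2707 to 3255 and 3592 to 4246. Differences were below 0 for 7 of the 10 markers, 2 had an unadjusted p under 0.05 and 2 were called lower with the block (Col1a1 and Nr2f2, a stromal nuclear receptor). Cyp17a1, which defines theca cells, was at 5.06 ± 0.29 on exposed and 4.80 ± 0.08 on unexposed arrays (SD, n = 3 each), and it was not called. Of 9 endothelial markers 1 was called, Esm1, a secreted proteoglycan, at 7.84, 8.06 and 8.23 in exposed cells, against 6.0044, 6.31 and 6.54 in unexposed cells (1.76 ± 0.22, adjusted p = 4.1e-05). The endothelial sum was 1026 to 1247 on exposed arrays and 682 to 776 on unexposed arrays, and without Esm1 725 to 1018 and 589 to 712. Differences were above 0 for 7 of the 9 markers, 3 were higher at an unadjusted p under 0.05, and Esm1 was the 1 called with the block. Emcn, which defines endothelium, differed by 0.05 ± 0.18, and Vwf, another such gene, was at 5.43, 4.96 and 4.76 on exposed arrays and 5.01, 5.18 and 4.97 on unexposed arrays. Vwf and Cyp17a1 lay below the median probe set of these arrays (6.05 to 6.17), where a shift may not show. These single genes therefore do not stand for their lists. The sum of 9 granulosa markers was 9135 to 9949 on exposed arrays and 10555 to 10963 on unexposed arrays. None of the 9 granulosa, 11 leukocyte, 5 oocyte or 7 surface epithelium markers was called by limma. At an unadjusted p under 0.05 there were 3, 0, 0 and 1 of them, against 8.02% of all genes, and 1, 0, 0 and 0 were called with the block. The part of these shifts in the other results was not tested.

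Matrix and cytoskeleton lists held few calls. Col1a1 was the 1 gene called of 33 for extracellular matrix. Of 18 genes of the actin cytoskeleton and smooth muscle none was called by limma, with 3 lower at an unadjusted p under 0.05 and 2 lower with the block, and the median was -0.28. None was called by limma of 18 interferon and immunoproteasome genes, 17 immediate-early factors, 17 cAMP response genes, 20 genes of hypoxia and glycolysis and 13 of secretory granules. At an unadjusted p under 0.05 these lists had 3, 0, 2, 2 and 0 genes, and with the block 2, 0, 1, 3 and 0. Over all genes 8.02% had an unadjusted p under 0.05, and 2.19% were called higher and 2.51% lower with the block.

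The lower doses showed how much of this was present below 10 µM. All 3 comparisons use the same unexposed arrays, so their values are given side by side. At 1 µM no probe set was called by limma or with the block, and 159 probe sets (0.512% of those tested) were under 0.05 before adjustment (unadjusted p). At 5 µM 4 probe sets were called (0.0129%), those of Esm1, Slc14a1, Sult1a1 and Cdc42ep2. Esm1 was at 6.61, 6.92 and 6.60 at 1 µM and at 7.64, 7.66 and 7.68 at 5 µM. Its difference from unexposed cells was 1.37 ± 0.22 at 5 µM (adjusted p = 0.0232) and 1.76 ± 0.22 at 10 µM. Sult1a1 differed by -1.27 ± 0.22 at 5 µM (adjusted p = 0.0388) and -1.37 ± 0.22 at 10 µM. Its level at 10 µM was near that of the dimmest probe sets, so a larger fall there may not show. Cdc42ep2, an effector of the GTPase Cdc42, was at 7.69, 7.64 and 7.63 at 10 µM and 8.99, 8.61 and 8.89 in unexposed cells, and differed by -1.09 ± 0.17 at 5 µM (adjusted p = 0.0225) and -1.17 ± 0.17 at 10 µM (adjusted p = 0.000215). Slc14a1, a urea transporter, differed by 1.03 ± 0.18 at 5 µM (adjusted p = 0.0465) and by 0.40 ± 0.18 at 10 µM, where it did not pass (adjusted p = 0.702). The calls at 5 µM were fragile, since 0 or 1 probe set was called with any 1 array left out, whichever it was. With the block 36 were called. No mitosis gene was called by limma or with the block at 5 or 1 µM, and 10 and 0 of 66 had an unadjusted p under 0.05, against 2% and 0.422% of all genes.

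Cyp26b1 and Mreg had large differences at 5 µM that were called only with the block. Cyp26b1 was at 7.85, 8.45 and 8.23 at 1 µM, at 7.04, 7.24 and 7.06 at 5 µM, and at 5.76, 6.9996 and 6.66 at 10 µM. Its difference from unexposed cells at 5 µM was -1.90 ± 0.41 (adjusted p = 0.252, with the block 0.00254). Mreg differed by -0.97 at 1 µM, -1.13 at 5 µM (adjusted p = 0.417, with the block 0.00155) and -1.67 at 10 µM. Star showed another pattern, at 8.42, 7.91 and 7.38 at 1 µM, 8.65, 8.71 and 8.12 at 5 µM and 11.09, 10.55 and 10.37 at 10 µM. Slc7a3 and Trib3 were at 7.38, 8.45 and 8.33 and at 7.54, 8.78 and 8.89 at 5 µM, where array 1 lay near the unexposed level.

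Between 10 and 5 µM, 29 probe sets were called, and of the genes 9 were higher (0.0633%) and 10 lower (0.0703%) at 10 µM. Of the mitosis list 4 were lower, Kif11, Nuf2, Ect2 and Racgap1, with a median difference of -0.63 over its 66 genes. Akr1c15 was at 7.95, 8.05 and 8.43 at 10 µM, against 6.84, 6.80 and 6.73 at 5 µM (1.35 ± 0.19, adjusted p = 0.00207). Serping1 was at 7.99, 8.13 and 8.22 at 10 µM, against 6.63, 6.89 and 6.68 at 5 µM (1.38 ± 0.24, adjusted p = 0.018). Casp4 differed by 1.27 ± 0.26 (adjusted p = 0.0457), Lhfpl3 by -1.10 ± 0.22 (0.0457), Cavin2 by -0.95 ± 0.17 (0.0232) and Plk4 by -0.96 ± 0.19 (0.0444). This comparison is fragile. Leaving out any 1 array left 1 to 9 probe sets, each of the calls of Serping1, Casp4, Lhfpl3 and Plk4 was lost without any 1 array (adjusted p = 0.0539 to 0.527), and that of Cavin2 was lost without every array but array 3 at 5 µM (0.0555 to 0.245).

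The same dose was also given to cells that received FSH or cAMP. No array enters the group means of both an unstimulated and a stimulated comparison, but all 36 arrays share 1 variance estimate per probe set. Without array 2 of both unexposed stimulated groups, 389 probe sets were called in unstimulated cells, against 316 with them. Of the 83 genes called higher by HPTE in unstimulated cells, 62 were called higher with FSH (74.7%, against 5.83% of all genes) and 42 with cAMP (50.6%, against 1.81%), and none was called lower. Those 62 and 42 genes were 7.48% and 16.3% of all genes called higher with FSH and with cAMP. Of the 125 genes called lower, 52 were called lower with FSH (41.6%, against 5.02%) and 58 with cAMP (46.4%, against 0.703%). They were 7.29% and 58% of the genes called lower with FSH and with cAMP, and 6 of the 125 were called higher with FSH. Without array 2 of both unexposed stimulated groups, 58 and 40 of the 83 were called higher, and 36 and 53 of the 125 lower, while 1 of the 83 was then called lower with FSH and 7 and 1 of the 125 higher. The mitosis list had 19 members called lower with FSH (median -0.69) and 27 with cAMP (median -0.94), and 9 and 24 without those 2 arrays, with none higher. Its difference in effect between unstimulated and stimulated cells was called for no member by limma with either stimulus. At an unadjusted p under 0.05 there were 7 and 1 members, against 12% and 4.34% of all genes. With the block 3 (Kif23, Hmmr and Cdk1) and 0 were called. Without those 2 arrays the difference was called for Kif23 and Cdk1 with FSH and for none with cAMP.

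Slc7a3 rose in all 3 settings, by 2.50 in unstimulated cells, 3.86 with FSH (adjusted p = 2.6e-08) and 3.34 with cAMP (adjusted p = 1.33e-06), as did Trib3, by 2.34, 2.80 and 3.34, and Casp4, by 2.00, 2.75 and 2.88. Their differences in effect were not called. The effect of HPTE in unstimulated cells minus that with FSH was called for 412 genes (2.9%) and the same against cAMP for 27 (0.19%). Without the number 2 arrays of both unexposed stimulated groups these counts were 632 and 52. With all arrays, the largest values of this difference were -4.22 for Acta2, smooth muscle actin, -4.14 for Tnfrsf11b, a decoy receptor for a bone cytokine, and -3.93 for Pamr1 against FSH, and 4.29 for Havcr1, 4.15 for Hao2 and 4.10 for Prlr, the prolactin receptor. None of these 6 genes was called in unstimulated cells, where their differences lay between -0.78 and 1.07, and each was called with FSH. Against cAMP they were -2.54 for Reg3g, -2.53 for Vcam1 and -2.06 for Cd302, and 2.72 for Kcnd2, a potassium channel, 1.79 for Serpinb1a and 1.67 for Esm1. Leaving out single arrays ended the call of Prlr in most fits (adjusted p up to 0.145 without unexposed FSH array 3), of Vcam1 (up to 0.146 without unexposed cAMP array 3) and of Kcnd2 (up to 0.0887 without exposed array 2).

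Cavin2 fell in unstimulated cells by 1.58 but differed by -0.50 with FSH (adjusted p = 0.0759) and 0.05 with cAMP (adjusted p = 0.999), and the differences in effect were -1.08 ± 0.24 (adjusted p = 0.0132) and -1.63 ± 0.24 (adjusted p = 0.00127). Mreg differed by 0.45 with FSH, a difference in effect of -2.12 ± 0.39 (adjusted p = 0.00218). Smoc2 fell by 4.97 with FSH, more than in unstimulated cells (difference in effect 3.25 ± 0.55, adjusted p = 0.00109). Serpinb1a rose by 1.92 in unstimulated cells and by 2.46 with FSH, against 0.12 with cAMP (difference in effect 1.79 ± 0.29, adjusted p = 0.00325). These 5 calls were kept when any 1 array or the pair of number 2 arrays was left out. Star differed by -0.27 with FSH and by 1.85 with cAMP (adjusted p = 0.949 and 0.0929), and its difference in effect against FSH was 2.75 ± 0.77 (adjusted p = 0.0549, without the number 2 arrays 0.0369).

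**Figure D5:**
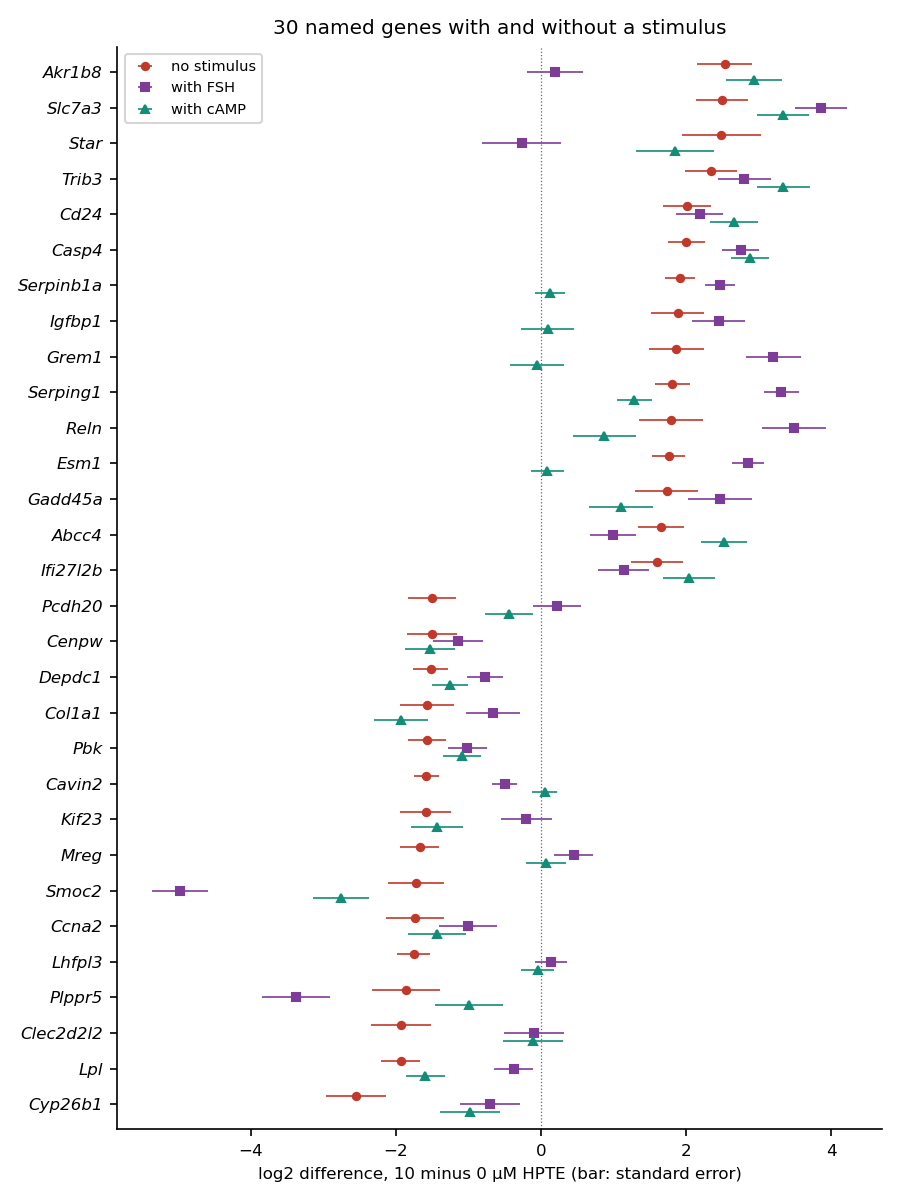
Log2 difference between 10 and 0 µM HPTE with its standard error for the 30 named genes in cells without a stimulus (circles), with FSH (squares) and with cAMP (triangles). Slc7a3 (2.50, 3.86 and 3.34) and Trib3 (2.34, 2.80 and 3.34) are high in all 3, while Serpinb1a, Esm1, Igfbp1 and Grem1 lie near 0 with cAMP.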

How the data were processed

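Total RNA from 36 rat granulosa cell cultures was measured on 1 Affymetrix array each. The authors deposited linear intensity values made with RMA, per the submitters' processing notes, which give no version, and the series' design text names ArrayAssist. RMA subtracts background, sets the arrays to 1 distribution and combines probes, so a shift shared by most genes would not show. For the work here log2 was taken, and limma 3.58.1 (R 4.3.3) fitted 12 group means over all 36 arrays with 24 residual degrees of freedom. P-values were adjusted by Benjamini-Hochberg over 31042 probe sets, leaving out 57 controls, and called at an adjusted p under 0.05. With 3 arrays a group the number of arrays limits the precision. In data simulated for 10 against 0 µM over 31042 probe sets, 68 of 100 changes of 1 and 94 of 100 changes of 2 log2 units were recovered, with 10 false calls. The simulated noise was independent between arrays, with each probe set's spread over all 36 arrays. It left out the link between arrays of equal title number, so the rates in the real data may differ.

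GEO's platform annotation gave 20826 probe sets 1 gene symbol, 436 several and 9780 none, and 20758 symbols were matched through RefSeq GRCr8. Each of 14217 genes was taken by its brightest probe set, averaged over the 36 arrays. Named are the 15 largest rises and falls among called genes whose groups did not overlap, the 3 largest each way in every other comparison, and members of 33 lists, of which 685 of 763 distinct genes were measured and the others are not analysed here. Plk4 came under the comparison of 10 with 5 µM. The members and lists were chosen with earlier results of these data known.

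Title numbers pair the unstimulated arrays at 10 and 0 µM. Their deviations from the group means correlated at 0.407, 0.464 and 0.694 for numbers 1, 2 and 3. Each exposed array correlated best with the unexposed array of its own number. Pairing in the other groups was not tested. The replicate block was an alternative, beside other normalizations, a dimness filter, an intensity trend, a pseudocount of 16, the mean of a gene's probe sets, other sets of arrays and leaving out single arrays. Promoter windows came from RefSeq, and figures and tables were made with Python 3.11.15, pandas 2.3.3 and matplotlib 3.10.9.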

Additional observations from a re-analysis of the deposited data

Results flagged for a closer look

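For 10 genes among the 30 with the largest differences, the effect of 10 µM HPTE in unstimulated cells differed from that in stimulated cells by limma's test of the difference itself, given here as the unstimulated minus the stimulated effect in log2 units. Against FSH, Lpl, the lipoprotein lipase, differed by -1.56 ± 0.38 (adjusted p = 0.0242), since it fell by 1.93 without a stimulus, against -0.38 with FSH. That call was lost in 7 fits that leave out 1 array and without both number 2 arrays (-1.32, adjusted p = 0.0529). Lhfpl3 differed by -1.89 (adjusted p = 0.00109), Mreg by -2.12 (0.00218) and Cavin2 by -1.08 (0.0132), each lower in unstimulated cells and not called with FSH. Smoc2 differed by 3.25 (0.00109) because its fall with FSH was larger, and these 4 calls were kept without any 1 array. Pcdh20 differed by -1.72 (0.0436) and lost its call in 9 fits with arrays left out.

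Akr1b8, the aldo-keto reductase, differed by 2.34 ± 0.54 against FSH (adjusted p = 0.0153), as it rose by 2.53 without a stimulus, against 0.19 with FSH. Without unexposed array 3, or without array 1 of the unexposed FSH group, the adjusted p was 0.0593 and 0.0539. Serping1 differed by -1.50 (0.0139), with the larger rise of 3.31 under FSH, and 0.0561 without unexposed array 2. Against cAMP, Cavin2 differed by -1.63 (0.00127) and Serpinb1a by 1.79 (0.00325), both kept without any 1 array. Lhfpl3 differed by -1.71 (0.0139), and 4 of 12 arrays were each needed for its call (0.0561 to 0.0715). Esm1 differed by 1.67 (0.0177), with a difference of 0.09 under cAMP, and lost its call without any of 4 arrays (0.0521 to 0.0792) and without both number 2 arrays (1.48, adjusted p = 0.0521).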

How the results depend on the processing

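Counts below are probe sets called, in the order 10 against 0 µM (316), 10 against 5 µM (29), 5 against 0 µM (4), unstimulated minus FSH effect (674) and unstimulated minus cAMP effect (40), then called mitosis genes (34). With the replicate block they were 1059, 148, 36, 2102, 177 and 58. With only the arrays compared, 10 against 0 µM gave 81, 10 against 5 µM 0, 5 against 0 µM 0, the cAMP comparison 10 and mitosis 10, and with the block added 898, 81, 223, 1929 (FSH), 63 and 55. Title numbers 1 and 2 alone gave 151, 0, 0, 154, 17 and 17. The 12 unstimulated arrays gave 6 for 10 against 5 µM and 20 mitosis genes, an intensity trend 12 for 10 against 5 µM, a pseudocount of 16 gave 7 at 5 µM, and only brighter probe sets gave 1 at 5 µM and 26 against cAMP. Without the number 2 arrays of the unexposed FSH and cAMP groups the comparisons with FSH and cAMP gave 1059 and 70. With the block as well, an alternative chosen after seeing the data, the 6 counts were 1379, 231, 69, 2679, 527 and 60. Leaving out single arrays gave 162 to 221, 1 to 9, 0 to 1, 398 to 903, 24 to 50 and 14 to 31. At 1 µM, where none was called by limma, 159 (0.512%) had an unadjusted p under 0.05. No result changed direction among those computed. Of the 30 genes with the largest differences, all kept their calls with the block, 10 lost them with only the arrays compared, 13 with numbers 1 and 2, and 7 to 12 with 1 array left out. Averaging all probe sets of a gene, which gives no test, moved 6 of the 30 beyond the replicate spread: Cyp26b1 to -1.57, Kif23 to -1.08, Serpinb1a to 1.19, Smoc2 to -0.58, Star to 3.04 and Trib3 to 1.79. For the counts that moved, the cause was not tested.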
